A study of Mus musculus with 8 samples.

Results

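The Adamts proteases are secreted zinc metalloproteases that cut the extracellular matrix. The genes described here are Adamts1, Adamts2, Adamts4, Adamts5, Adamts6, Adamts7, Adamts9, Adamts10, Adamts12 and Adamts15, which were taken by gene symbol and make up 10 of the 47643 named genes in the expression table. Their transcripts were measured by RNA-seq in cultured mouse bone marrow mesenchymal stem cells (MSCs), and their N6-methyladenosine (m6A) peaks by MeRIP-Seq, in which an antibody against m6A recovers methylated RNA fragments. The study asked what Mettl3, the catalytic subunit of the m6A methyltransferase, does in these cells.

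Every sample was labelled C57BL/6, and every culture had spent 2 days in osteogenic medium with dexamethasone (100 nM), β-glycerophosphate (5 mM) and ascorbic acid (50 μg/ml). The RNA-seq control group held 2 libraries labelled wild type, which the study's methods describe as littermates of the knockout mice and its legends as Mettl3fl/fl. The conditional knockout group (cKO) held 2 libraries labelled Prx1-cre;Mettl3fl/fl. Cre under the Prx1 promoter acts in limb mesenchyme and removes exons 2 and 3 of the floxed Mettl3 allele, so that cells of other lineages in a culture keep the gene. MeRIP-Seq used 2 m6A immunoprecipitates and 2 inputs, all labelled wild type. The labels give no age, and they do not say whether replicate libraries came from separate animals, so p-values measure the spread between these libraries, which may be technical.

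Adamts enzymes are made as inactive precursors, are activated by furin-like proprotein convertases and are held in the matrix through their thrombospondin type 1 repeats. Adamts1, Adamts4, Adamts5, Adamts9 and Adamts15 cleave the large aggregating proteoglycans aggrecan and versican, and Adamts4 and Adamts5 are the best known aggrecanases of cartilage. Adamts2 removes the amino-terminal propeptide of fibrillar procollagens, Adamts7 and Adamts12 bind and cut cartilage oligomeric matrix protein, and Adamts6 and Adamts10 act at fibrillin microfibrils.

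Peaks of m6A belonged unambiguously to 5 of the 10 genes, Adamts1, Adamts4, Adamts5, Adamts7 and Adamts12, and for 5 of their 7 peaks the sequence around the GGAC closest to the summit is printed because GGAC is the motif that the study names for its m6A sites. Each line gives 30 bases of the mm9 genome on the strand of the transcript, 5′ to 3′, with the GGAC in capitals and all bases within 1 exon.
Adamts1, chr16:85795878-85795907, minus strand: cagagacattaacGGACaccctgcttccga
Adamts4, chr1:173189099-173189128, plus strand: agagacactgtctGGACatgggccgctggc
Adamts5, peak in the last exon, chr16:85863021-85863050, minus strand: cagcaacaaggtgGGACcacactctacaca
Adamts7, first peak, chr9:90088139-90088168, plus strand: gataatgggggttGGACagcaccacctcac
Adamts7, second peak, chr9:90088850-90088879, plus strand: ctgacaatgcctgGGACcttgcttttgaca

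In the RNA-seq data, Adamts4 was far lower in the libraries labelled cKO than in the controls, Adamts9 was moderately lower, and Adamts2, Adamts5, Adamts6, Adamts7, Adamts10 and Adamts12 were higher. The changes of Adamts1, the most abundant member, and Adamts15, the least abundant, did not pass the test. By the quasi-likelihood test of edgeR, adjusted by Benjamini-Hochberg, 8 of the 10 genes passed an adjusted p of 0.05, where 30.5% of the 15327 genes tested did so. Of these, 6 were higher in cKO (13.7% of all genes tested) and 2 were lower (16.8%). Of the 10, 4 passed with a change of at least 2-fold, against 9.19% of all genes tested. Control and cKO values did not overlap for the same 8 genes, and neither did they for 68.9% of all genes tested. All 10 genes passed the filter on low counts, with 25 to 10911 counts in a library. Their median log2 fold change was 0.49, where that of all genes tested was −0.0039. The 10 were chosen with earlier results of these data known, so these shares describe this list and do not test the family. Adamts3 and Adamts14, outside the 10, were also tested and had log2 fold changes of −2.56 and −0.26. The count of 8 fell to 4 without cKO replicate 2, to 5 without cKO replicate 1 and to 1 in an ordinary linear model on log2(TPM + 1).

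**Figure D1:**
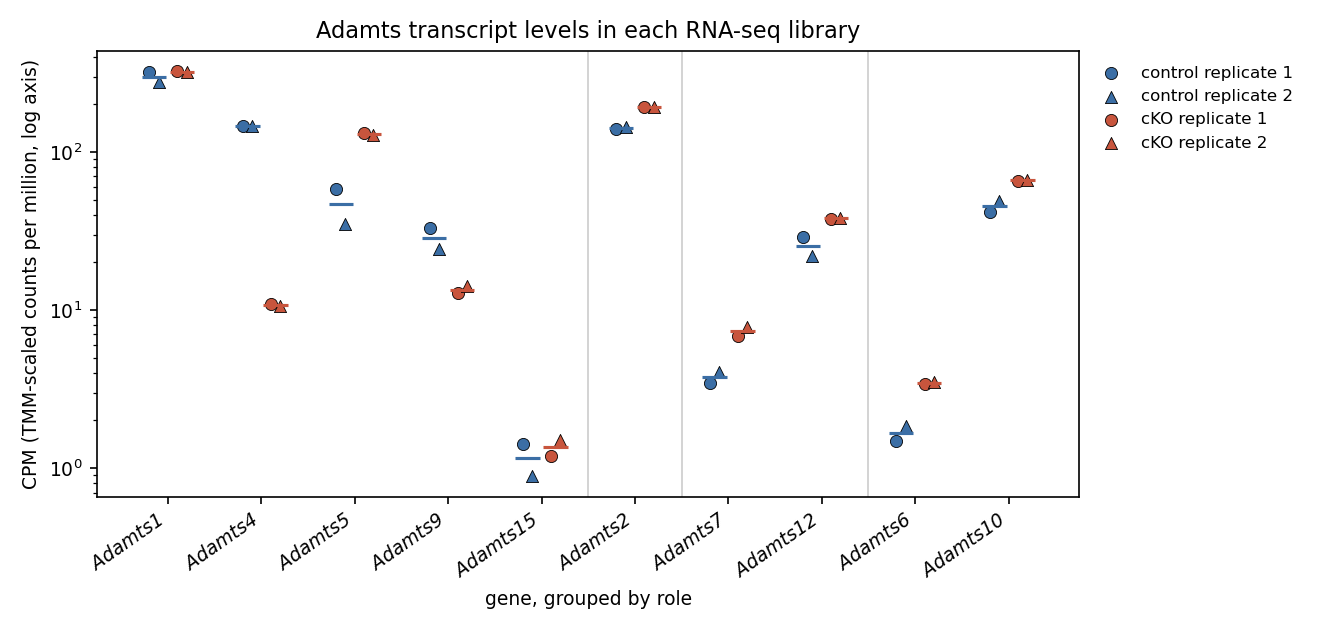
Level of each Adamts gene in CPM, counts scaled to a library total of 1000000 (log axis), in the 2 control and 2 cKO RNA-seq libraries, with 1 point a library and a bar at the mean of each group, the genes grouped by role. The control and cKO points are separate for 8 genes and overlap for Adamts1 and Adamts15, and the 2 cKO points of a gene lie close together.

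A library held 23978099 to 34106693 counts. The 2 control libraries differed more from each other than the 2 cKO libraries, with a chi-square per degree of freedom of 33.0 over 15004 genes in the control pair and 1.81 over 14670 genes in the cKO pair. Mettl3 itself had 17.6 and 16.9 CPM (counts scaled to a library total of 1000000) in the controls and 17.5 and 16.3 CPM in cKO (log2 fold change −0.03, edgeR adjusted p = 0.824). The counts cover the whole gene and not the deleted exons alone, so this value does not check the labels, and the groups are called control and cKO by their labels only. Of 8 stromal markers, 7 reached at least 1 CPM in every library, with summed levels of 2658 and 2572 CPM in the controls and 2113 and 2151 CPM in cKO. Of these markers 4 rose (Thy1, Prrx1, Pdgfra and Pdgfrb) and 3 fell (Col1a1, Cxcl12 and Eng), and without Col1a1 they summed to 762 and 652 CPM in the controls and to 889 and 893 CPM in cKO. Macrophage markers were also high, with Lyz2 at 10984 to 15934 CPM. Summed macrophage markers, 6 of 6 detected at 1 CPM or more, came to 13920 and 18945 CPM in the controls and to 18748 and 18857 CPM in cKO. Most of each sum was Lyz2. Of these 6 markers Ptprc alone passed the test, higher in cKO (log2 fold change 0.42, edgeR adjusted p = 0.00333). The 6 chondrocyte markers summed to 3538 and 3576 CPM in the controls and to 84.7 and 83.9 CPM in cKO, and 4 of them fell. The 4 neutrophil markers summed to 0.377 to 3.54 CPM, with S100a9 and Mpo at 3 counts or fewer in every library. Endothelial markers, 4 in number, summed to 3.43 and 3.15 CPM in the controls and to 16.5 and 14.2 CPM in cKO. The higher sum came from Kdr (mean 2.11 to 9.38 CPM) and Emcn (0.519 to 5.65 CPM). Pecam1 (0.257 to 0.161 CPM) and Cdh5 (0.402 to 0.177 CPM) were lower in cKO, at few counts and without a call. The 4 smooth muscle markers summed to 636 and 741 CPM in the controls and to 445 and 456 CPM in cKO, and 3 of them fell.

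Among the proteoglycan-cleaving members, Adamts4 showed the largest change of the 10 genes. Adamts4 (GRCm38 chromosome 1, 171250421 to 171260637, plus strand) had 145.1 and 146.1 CPM in the 2 control libraries and 10.9 and 10.6 CPM in the 2 cKO libraries. Both cKO libraries were far below both controls, and the replicates of each group were nearly equal. The mean was 145.6 ± 0.725 CPM in the controls and 10.8 ± 0.184 CPM in cKO (SD, n = 2 each). This was 13.5-fold lower in cKO, with a log2 fold change of −3.76 (SE 0.0678, 95% interval −3.92 to −3.59, edgeR adjusted p = 1.61e-06). By the size of its change, Adamts4 ranked 198 among the 15327 genes tested. The fall passed the threshold under all 13 alternative settings of the fit, with log2 fold changes of −3.77 to −3.34. The chondrocyte markers fell in the same libraries, and their part in the change of Adamts4 was not tested. In these bulk samples, fewer cells of a type and less RNA per cell cannot be told apart.

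Adamts5, the other main aggrecanase, moved the opposite way. Adamts5 (chromosome 16, 85858170 to 85901125, minus strand) had 58.4 and 35.1 CPM in the controls and 132 and 128 CPM in cKO. Both cKO libraries were above both controls, and the controls stood apart from each other. The mean rose from 46.7 ± 16.5 to 130 ± 2.61 CPM (SD, n = 2 each), a 2.78-fold rise with a log2 fold change of 1.47 (SE 0.211, 95% interval 0.96 to 1.98, edgeR adjusted p = 0.00368). The call was lost in limma on log2(TPM + 0.1) without a filter on low values (adjusted p = 0.0517) and in the ordinary linear model (adjusted p = 0.204).

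The order of the 2 aggrecanases was therefore reversed between the groups. On the deposited per-length scale, TPM (transcripts scaled for length and library total), Adamts4 was at 45.7 and 45.3 and Adamts5 at 9.66 and 5.72 in the controls. In cKO, Adamts4 was at 3.63 and 3.56 TPM and Adamts5 at 23.2 and 22.6 TPM. The ratio of Adamts4 to Adamts5 was 4.73 and 7.93 in the control libraries and 0.157 in each cKO library. Their summed level was 55.4 and 51.1 TPM in the controls and 26.8 and 26.2 TPM in cKO. The sum of both aggrecanase transcripts was thus lower in each cKO library than in either control.

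Adamts9, which cuts versican and aggrecan, was the other member that fell. Adamts9 (chromosome 6, 92772699 to 92943492, minus strand) had 33.2 and 24.3 CPM in the controls and 12.8 and 14.1 CPM in cKO. The groups did not overlap, although the controls differed from each other by more than the cKO pair did. The mean went from 28.7 ± 6.28 to 13.4 ± 0.966 CPM (SD, n = 2 each), which is 2.14-fold lower, with a log2 fold change of −1.10 (SE 0.160, 95% interval −1.48 to −0.71, edgeR adjusted p = 0.00398). In limma the call was lost on log2(TPM + 1) (adjusted p = 0.0511) and on log2(TPM + 0.1) without a filter (adjusted p = 0.0722), and the ordinary linear model gave 0.233. Adamts9 overlaps 3 entries on the opposite strand, none with more than 20.52 counts in a library.

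Adamts1 was abundant in every library. This gene (chromosome 16, 85793827 to 85803113, minus strand) had 323 and 277 CPM in the controls and 325 and 320 CPM in cKO, so that control replicate 1 lay between the cKO libraries and control replicate 2 below them. Its log2 fold change was 0.11 (SE 0.0830, 95% interval −0.10 to 0.31, edgeR adjusted p = 0.384). The value depended on the control libraries. Without control replicate 1 it was 0.22, and without control replicate 2 it was −0.0036. The 2 controls themselves differed by 0.220 on the log2 scale. With 1 control library left, the spread in these fits came from the cKO pair alone, so their p-values are not given.

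Adamts15, another versican-cleaving enzyme, was the lowest of the 10. It lies on chromosome 9 (30899155 to 30922452, minus strand) and had 1.42 and 0.884 CPM in the controls and 1.197 and 1.51 CPM in cKO, which rest on 48, 25, 29 and 48 counts. The groups overlapped, and the log2 fold change was 0.23 (SE 0.342, 95% interval −0.60 to 1.05, edgeR adjusted p = 0.659). The interval covers changes of opposite sign, so that neither a rise nor a fall was detectable at this depth.

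**Figure D2:**
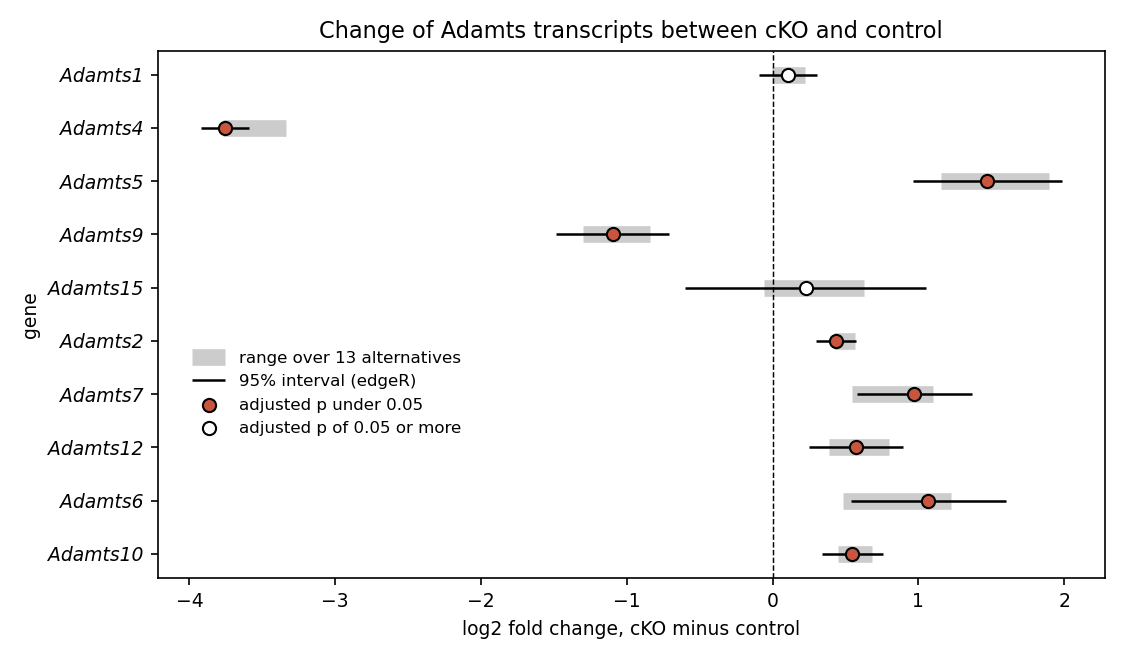
Log2 fold change of each Adamts gene between cKO and control in the edgeR fit (points) with its 95% interval (thin bars) and its range over 13 alternative settings (wide grey bars), above 0 for genes higher in cKO. Adamts4 is at −3.76 and Adamts9 at −1.10, the 6 genes that rose lie between 0.44 and 1.47, and the intervals of Adamts1 and Adamts15 cross 0.

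Adamts2, the procollagen N-proteinase, rose by a small and even amount. It lies on chromosome 11 (50602084 to 50807573, plus strand) and had 140 and 144 CPM in the controls and 192.5 CPM in each cKO library. Both cKO values were above both control values, with means of 142 ± 2.59 and 193 ± 0.0321 CPM (SD, n = 2 each). The rise was 1.35-fold, with a log2 fold change of 0.44 (SE 0.0568, 95% interval 0.30 to 0.57, edgeR adjusted p = 0.00256). Leaving out cKO replicate 1 or cKO replicate 2 gave the same size of change and edgeR adjusted p-values of 0.0527 and 0.0528, and the ordinary linear model gave 0.0758.

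The enzymes that cut cartilage oligomeric matrix protein, Adamts7 and Adamts12, both rose. Adamts7 (chromosome 9, 90163069 to 90208071, plus strand) had 3.43 and 4.07 CPM in the controls and 6.89 and 7.75 CPM in cKO, from 115 to 247 counts in a library. Both cKO libraries were higher than both controls. The rise was 1.96-fold, with a log2 fold change of 0.97 (SE 0.164, 95% interval 0.58 to 1.37, edgeR adjusted p = 0.00684), and the call was lost in 5 of the 13 alternatives. These were the fit without cKO replicate 2 (edgeR adjusted p = 0.0623), the 3 limma fits (adjusted p = 0.0922 to 0.139) and the ordinary linear model (adjusted p = 0.237). The last part of Adamts7 overlaps Tbc1d2b, a far more abundant gene on the opposite strand with 3219 to 4997 counts in a library and a log2 fold change of −0.17 (edgeR adjusted p = 0.0673). The strand setting of the counting is not given in the sources used here, and without strand, reads from the shared stretch cannot be told apart.

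Adamts12 lies on chromosome 15 (11064790 to 11346867, plus strand). It had 29.0 and 21.9 CPM in the controls and 37.7 and 38.3 CPM in cKO. The lowest cKO value was above the highest control, and the means were 25.5 ± 5.01 and 38.0 ± 0.466 CPM (SD, n = 2 each). The rise was 1.49-fold, with a log2 fold change of 0.57 (SE 0.133, 95% interval 0.25 to 0.90, edgeR adjusted p = 0.0209). This call was lost in 7 of the 13 alternatives, among them the fits without cKO replicate 1 (edgeR adjusted p = 0.0649) and without cKO replicate 2 (edgeR adjusted p = 0.0740).

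Adamts6 and Adamts10, a pair of close relatives that act at fibrillin microfibrils, rose as well, from very different levels. Adamts6 (chromosome 13, 104287873 to 104494763, plus strand) had 1.48 and 1.84 CPM in the controls and 3.43 and 3.51 CPM in cKO, from 50, 52, 83 and 112 counts. The groups did not overlap, but the counts were few. Its rise was 2.10-fold, with a log2 fold change of 1.07 (SE 0.221, 95% interval 0.54 to 1.60, edgeR adjusted p = 0.0144). The call was lost in 7 of the 13 alternatives, among them the fits without cKO replicate 1 (edgeR adjusted p = 0.0834) and without cKO replicate 2 (edgeR adjusted p = 0.104).

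Adamts10 (chromosome 17, 33524204 to 33553782, plus strand) had 41.8 and 48.7 CPM in the controls and 65.9 and 66.3 CPM in cKO. Each cKO library exceeded each control, and the means were 45.2 ± 4.89 and 66.1 ± 0.301 CPM (SD, n = 2 each). The rise was 1.46-fold, with a log2 fold change of 0.55 (SE 0.0868, 95% interval 0.34 to 0.76, edgeR adjusted p = 0.00544), and it failed the threshold in the ordinary linear model alone among the 13 alternatives (adjusted p = 0.104).

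The spread within the groups was uneven across these genes. Control replicate 1 was the higher control for 5 of the 10 genes and the lower for the other 5. The 2 cKO libraries were closer to each other than the 2 controls for 9 of the 10 genes. On the log2 scale, the difference between replicates was 0.0102 to 0.734 in the controls, where it was largest for Adamts5, and 0.00034 to 0.331 in cKO.

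Levels of different genes were compared per length. In the controls, the order by mean TPM was Adamts1 (84.1), Adamts4 (45.5), Adamts2 (26.5), Adamts10 (24.8), Adamts9 (7.85), Adamts5 (7.69), Adamts12 (5.49), Adamts7 (1.38), Adamts6 (0.465) and Adamts15 (0.260). Adamts9 was below Adamts5 in control replicate 1 and above it in control replicate 2, so the order of these neighbours is not resolved, whereas Adamts5 was above Adamts12 in both control libraries. In cKO the order was Adamts1 (96.7), Adamts10 (39.9), Adamts2 (39.2), Adamts5 (22.9), Adamts12 (8.77), Adamts4 (3.60), Adamts9 (3.53), Adamts7 (2.48), Adamts6 (1.05) and Adamts15 (0.330). There, the order of Adamts10 and Adamts2 differed between the libraries, and so did that of Adamts4 and Adamts9. Adamts4 thus went from rank 2 to rank 6 and Adamts5 from rank 6 to rank 4. When CPM were divided by the listed gene length instead, Adamts10 was at rank 4 in both groups, Adamts5 went from rank 5 to rank 3, and Adamts9 was at rank 7 in the controls and, below Adamts7, at rank 8 in cKO. The places of several members, these among them, thus rest on the length used.

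The summed level of the 10 genes was 214 and 194 TPM in the controls and 219 and 218 TPM in cKO. The make-up of this sum changed more than its size. Adamts4 gave 22.3% of it in the controls and 1.65% in cKO, whereas Adamts5 gave 3.77% and 10.5%. Adamts1 gave the largest share in both groups, 41.2% and 44.3%. The shares of Adamts2 (12.97% and 17.9%) and Adamts10 (12.1% and 18.3%) were also larger in cKO.

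**Figure D3:**
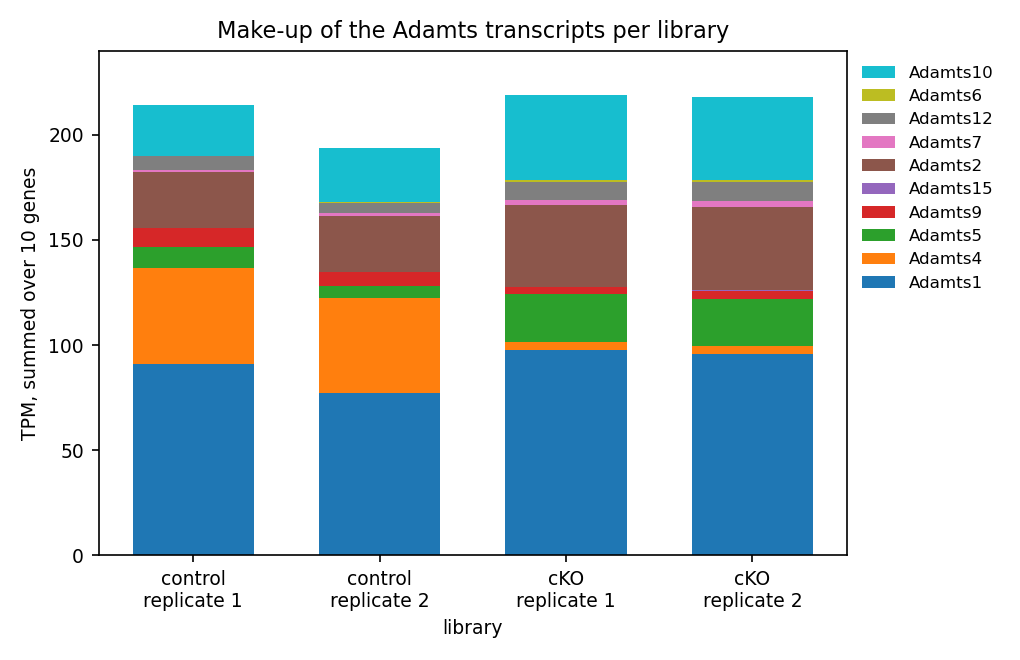
Deposited TPM of the 10 Adamts genes stacked for each of the 4 RNA-seq libraries. The total is 194 to 219 TPM in every library, while the Adamts4 block goes from 22.3% of the control bars to 1.65% of the cKO bars.

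In the genome, Adamts1 and Adamts5 are neighbours on chromosome 16, on the same strand, 55.1 kb apart and with no other entry of the expression table between them. Their values differed: Adamts5 rose 2.78-fold, and Adamts1 had a 95% interval of −0.10 to 0.31 on the log2 scale.

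MeRIP-Seq gave 1 list of 10160 peaks for its 4 samples, so that no peak has a replicate error, and how deeply these samples were sequenced is unknown. The list comes from samples labelled wild type and does not compare control with cKO. By peak summit on mm9, 9397 peaks lay in a gene, and 5 of the 10 Adamts genes had 1 or more, against 38.6% of all genes tested in the RNA-seq data. In total 9 summits fell within these 5 genes. Of them, 2 lay in an intron of Adamts7 and at the same time in the coding sequence or 3′UTR of Tbc1d2b, so that they cannot be assigned to Adamts7. The other 7 lay in no other gene, and all 7 were in coding sequence, where 59.9% of all peaks in genes lay, and none in a 3′UTR, which held 25.6%.

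**Figure D4:**
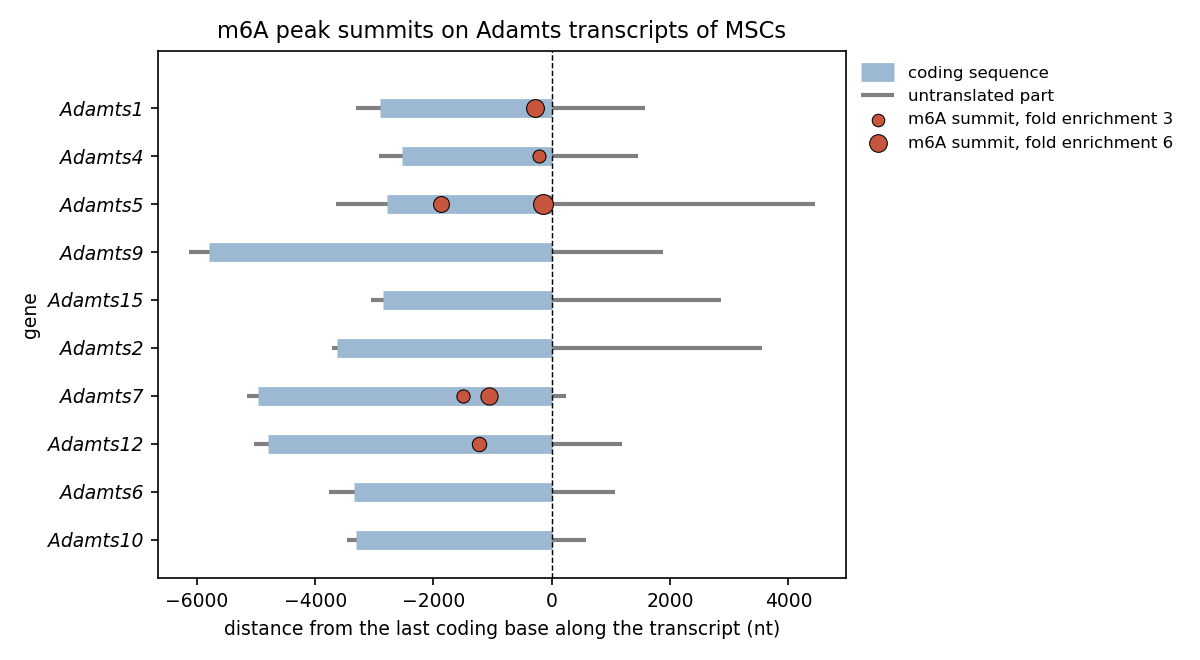
The 7 assignable m6A summits (points, with area set by fold enrichment) on the 10 Adamts transcripts, drawn along the spliced transcript with thick bars for coding sequence and thin lines for untranslated parts; the x axis is the distance in nucleotides from the last coding base. All 7 points sit on coding sequence, 3 of them 155 to 278 nt before its end, and 5 genes have no point.

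The aggrecanases and Adamts1 carried peaks near the end of their coding sequence. The Adamts1 peak (mm9 chr16:85795612-85796121) was the strongest of the 7 by q-value, with a pileup of 99 fragments at its summit, a 6.09-fold enrichment and a −log10 q of 40.9. Its summit was in exon 9 of 9, 278 nt before the last coding base, and its q-value ranked 331 among all peaks. The Adamts4 peak (chr1:173188978-173189224) was also in exon 9 of 9, 215 nt before the last coding base, but weaker, with a pileup of 40, a 3.26-fold enrichment and a −log10 q of 7.74. Over all peaks, the median pileup was 60 and the median enrichment 4.03-fold, so that Adamts1 lay above and Adamts4 below both. Adamts5 had a summit in its last exon as well (chr16:85862854-85863303, exon 8 of 8, 155 nt before the last coding base) and another in exon 1 (chr16:85899455-85899959, 1865 nt before it). The last-exon peak of Adamts5 had the highest fold enrichment of the 7, 7.58-fold, with a pileup of 60 and a −log10 q of 30.7, and 92.2% of all peaks were lower in fold enrichment. The exon 1 peak had a 4.85-fold enrichment, a pileup of 68 and a −log10 q of 22.7.

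The enzymes that cut cartilage oligomeric matrix protein carried their peaks in an inner exon. Adamts7 had both of its assignable summits in exon 19 of 24, in neighbouring peaks (chr9:90088139-90088473 and chr9:90088642-90088953), 1504 and 1064 nt before the last coding base. Their fold enrichments were 3.36 and 5.69, their pileups 19 and 31, and their −log10 q 3.69 and 12.7. The Adamts12 summit was likewise in exon 19 of 24 (chr15:11240830-11241051), 1237 nt before the last coding base, with a 3.97-fold enrichment, a pileup of 27 and a −log10 q of 7.07. Of the 7 peaks, 3 were thus in the last exon and 4 were not. For comparison, 53.1% of the coding-sequence summits of all genes lay in the last coding exon and 32.2% in the last 300 coding nucleotides.

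Each of the 7 peaks held at least 1 GGAC on the transcript strand, 18 in all, and so did 8149 of the 9397 peaks in genes. The second Adamts7 peak held 5, the Adamts5 peaks held 4 in exon 1 and 3 in the last exon, and the Adamts4 and first Adamts7 peaks held 1 each. In the 5 printed sequences, the base after the GGAC was A in 3 and C in 2, and none was GGACT, which was the GGAC closest to the summit in 31.8% of all peaks that hold one. GGACA was closest in 34.4% and GGACC in 23.9% of them. In the first Adamts7 peak the GGAC lay 243 nt upstream of the summit, at the edge of the peak, and in the other 4 printed sequences it lay within 33 nt of the summit. A match is a description of the letters and not a mapped methylated base.

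The members without a peak were Adamts2, Adamts6, Adamts9, Adamts10 and Adamts15. Adamts2 and Adamts10 had a higher TPM than Adamts5, Adamts7 and Adamts12, which had peaks, so that level alone did not separate them. Over all genes tested, 12.6% of those below 1 TPM in the controls, 42.3% of those from 1 to 20 TPM and 44.7% of those above 20 TPM had a peak. A gene without a listed peak was not detected as methylated at an unknown depth. Of the 5 genes with a peak, 3 rose (Adamts5, Adamts7 and Adamts12), 1 fell (Adamts4) and 1 did not pass (Adamts1). Of the 5 without, 3 rose (Adamts2, Adamts6 and Adamts10), 1 fell (Adamts9) and 1 did not pass (Adamts15). The counts in each direction were the same with and without a peak.

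Most of the remaining genes of the family were too low to be tested. Of 9 other Adamts genes, 7 did not pass the filter on low counts and 2 did, Adamts3 and Adamts14. Adamts14, with means of 2.8 TPM in the controls and 2.5 TPM in cKO, was above the means of the members Adamts6, Adamts7 and Adamts15 in both groups. In cKO replicate 2, however, Adamts7 (2.76 TPM) was above Adamts14 (2.67 TPM). Adamts3, a procollagen N-proteinase like Adamts2, had 72 and 72 counts in the controls and 9 and 13 in cKO, a log2 fold change of −2.56 (SE 0.312, edgeR adjusted p = 0.00201). The low Adamts3 and the high Adamts2 thus moved in opposite directions. Adamts14, the other relative of Adamts2, had 11.98 and 9.59 CPM in the controls and 8.46 and 9.54 CPM in cKO (log2 fold change −0.26, edgeR adjusted p = 0.231). The median log2 fold change of these 2 genes was −1.41.

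The Adamts-like genes encode relatives that lack the protease domain, several of which bind microfibrils. Of 7 genes, 6 were tested, 1 rose and 2 fell, with a median log2 fold change of 0.11. Among all genes tested, 13.7% rose and 16.8% fell. Thsd4 rose from 10.6 and 8.60 CPM to 21.9 and 22.6 CPM (log2 fold change 1.21, edgeR adjusted p = 0.00103). Adamtsl3 fell by 1.04 on the log2 scale (edgeR adjusted p = 0.00153). Adamtsl2 had 43 and 18 counts in the controls and 0 and 3 counts in cKO (edgeR adjusted p = 0.0139), too few for a fold change. With Adamtsl2 set to 3 counts in each cKO library, it was still the lowest of the list, so the median of 0.11 could not change. The highest levels were those of Adamtsl5 (38.0 TPM in the controls and 37.8 TPM in cKO) and Adamtsl4 (23.0 and 28.8 TPM), neither of which passed the test (log2 fold changes 0.06 and 0.27).

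Of 12 substrate genes, 11 were tested, 4 rose and 6 fell, with a median log2 fold change of −0.62. The shares over all genes tested were 13.7% higher and 16.8% lower, and the list was chosen with earlier results known. The largest falls were those of Acan, the aggrecan core protein cut by Adamts4 and Adamts5, and Col2a1, the cartilage collagen. Acan had 325 and 489 CPM in the controls and 1.11 and 0.628 CPM in cKO (log2 fold change −8.91, edgeR adjusted p = 1.59e-05), and Col2a1 had a log2 fold change of −5.53 (edgeR adjusted p = 1.61e-06). Both are also among the chondrocyte markers that fell. The largest rises were those of the microfibril proteins Fbn2 (log2 fold change 3.23, edgeR adjusted p = 0.00293) and Fbn1 (1.48, edgeR adjusted p = 0.00230). Fbn1 went from 265 and 172 CPM to 613 and 610 CPM, while Fbn2 stayed below 7 CPM in every library. By mean TPM over all 4 libraries, the highest substrates were Bgn, a small proteoglycan, which rose from 853 to 1189 TPM, and Col1a2, a chain of type I procollagen, which fell from 537 to 280 TPM. Col1a2 was second in neither group alone, since Col2a1 was above it in the controls (669 TPM) and Col3a1 (345 TPM) and Col1a1 (302 TPM) were above it in cKO. Versican (Vcan), named after its values were seen, had 282 and 227 CPM in the controls and 286 and 278 CPM in cKO, with a log2 fold change of 0.15 (edgeR adjusted p = 0.335). Comp, the gene of cartilage oligomeric matrix protein and also a chondrocyte marker, was likewise named after its values were seen. It had 761 and 829 CPM in the controls and 20.5 and 17.9 CPM in cKO (log2 fold change −5.37, edgeR adjusted p = 1.61e-06).

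Of 13 inhibitors and partners, all were tested, 3 rose and 7 fell, with a median log2 fold change of −0.27. Beside them, 13.7% of all genes tested rose and 16.8% fell, and this list too was chosen with earlier results known. The largest falls were those of A2m, a broad protease inhibitor that was low in all libraries (log2 fold change −3.36, edgeR adjusted p = 0.00288), and Timp1 (−2.22, edgeR adjusted p = 1.55e-05), which went from 176 and 196 CPM to 40.9 and 39.0 CPM. The largest rises were those of Pcsk6, a proprotein convertase (0.62, edgeR adjusted p = 0.0121), and Timp3, the tissue inhibitor that acts on Adamts4 and Adamts5 (0.61, edgeR adjusted p = 0.0463). Timp3 was at 168 and 257 CPM in the controls and at 323 and 324 CPM in cKO, so that the groups did not overlap and the controls stood apart from each other. The most abundant were Lrp1, the receptor that clears Adamts4 and Adamts5 from the cell surface, and Timp2. Lrp1 had 1260 TPM in the controls and 1322 TPM in cKO (log2 fold change 0.40, edgeR adjusted p = 0.0274). Its counts rose, from 4605 and 3721 CPM to 5462 and 5559 CPM. In TPM its groups overlapped, at 1219 and 1301 in the controls and 1289 and 1356 in cKO. Timp2 had 463 TPM in the controls and 462 TPM in cKO (log2 fold change 0.00012, edgeR adjusted p = 0.999).

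**Figure D5:**
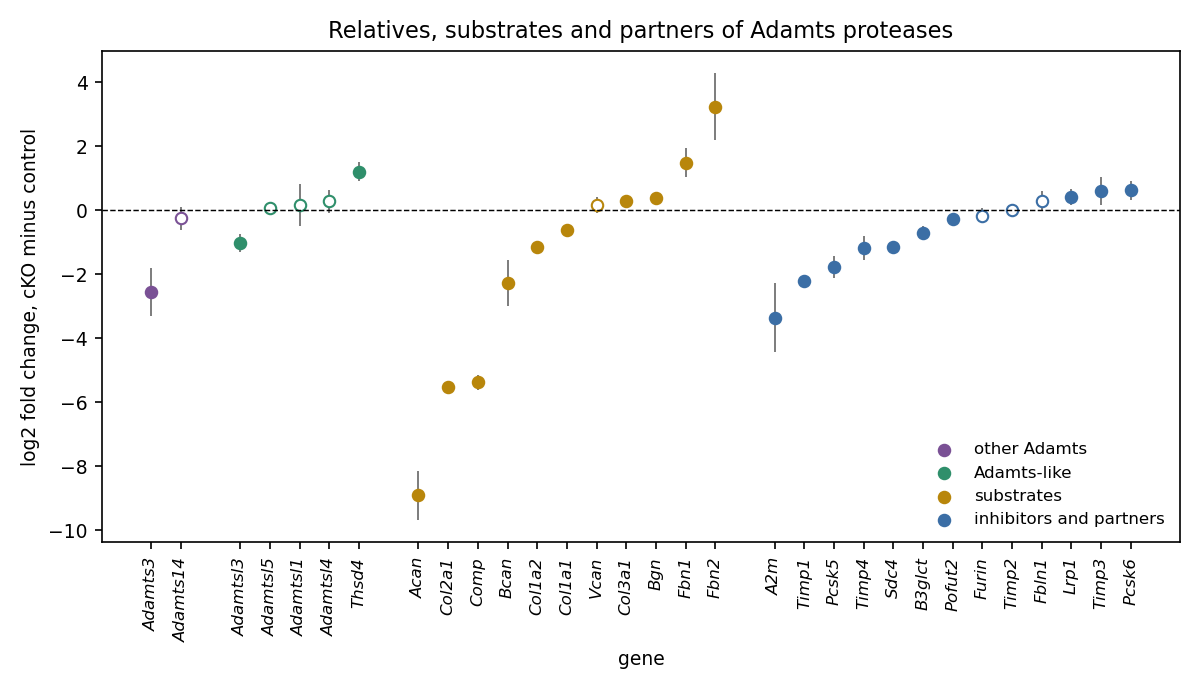
Log2 fold change between cKO and control of the tested relatives, substrates, inhibitors and partners of the Adamts proteases, with 95% intervals (bars), filled where the edgeR adjusted p is under 0.05 and open otherwise. Adamtsl2 is left out because it has at most 3 counts in each cKO library. The points reach from −8.91 for Acan to 3.23 for Fbn2.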

How the data were processed

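RNA-seq and MeRIP-Seq were done on MSCs of mice. The submitters' processing notes name HISAT2 2.0.4, TopHat and MACS2 and the builds mm10 and mm9, and the study's methods name HISAT2 for RNA-seq and Ballgown for its test. The way reads were counted is not given in the sources used here. The authors deposited 2 values per gene and library, the first an estimated count made without normalization. The second was deposited under the heading FPKM but sums to 1000000 per library and is therefore a TPM. From MeRIP-Seq the authors deposited 1 list of peaks in MACS2 layout, with positions, a pileup signal per summit, a fold enrichment (ratio to the local background) and a q-value as −log10. The header of the q-value is damaged, and the column was read by its MACS2 position. The p-value column was not used.

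Of 47732 entries, 89 without a gene name held 0.110% to 0.125% of the counts and were left out. Estimated counts were rounded to whole numbers, passed through filterByExpr and given TMM factors. The fit used glmQLFit and glmQLFTest of edgeR 4.0.16 (two-sided, 4 libraries, no block), with Benjamini-Hochberg adjustment over 15327 genes at a threshold of 0.05. CPM were scaled by the same factors. Standard errors came from the fold change and its F statistic. An exact permutation test of 2 against 2 cannot go below 0.333 and was not used. The test was tried on simulated data with the same spread in both groups. That trial does not cover the unequal spread of the control and cKO pairs. Library totals of 23978099 to 34106693 counts left 25 counts as the lowest value of a member.

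Summits were placed on mm9 with GENCODE vM1 gene models, coding sequence first, and GGAC was searched on the transcript strand. Overlaps and GRCm38 positions came from the expression table. Alternatives were a replicate block, no filter, DESeq2 1.42.0 and its size factors in edgeR, limma 3.58.1 on log2(TPM + 0.1) with and without a filter at 0.1 TPM and on log2(TPM + 1), a linear model without shared variances on the latter, fits without each library, both cKO libraries summed, and stricter or other peak rules. Every member is named. From each list of related genes, the 2 largest rises and falls among genes past the threshold and the 2 highest mean TPM are named. The members and lists were chosen with earlier results of these data known. The sequences at 2 of the 7 peaks are not reported here, and protein sequences were not used here.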

Additional observations from a re-analysis of the deposited data

How the results depend on the processing

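The count of members past the threshold was the same 8 with no filter, median-of-ratios size factors and DESeq2, and was 6 with the cKO libraries summed. It was 5 in limma on log2(TPM + 0.1), 4 in limma on log2(TPM + 1), 3 in limma without a filter, and 1, Adamts4, in the ordinary linear model. The members that rose numbered 3, 3, 2 and 0 in these fits, where 6 of the 10 members in limma and 4 in the ordinary linear model were higher at an unadjusted p under 0.05. The members that fell numbered 1 in limma on log2(TPM + 1), in limma without a filter and in the ordinary linear model. Fits without a control library took their spread from the cKO pair alone, so their counts past the threshold are not given. Those without a cKO library took it from the control pair alone. For all genes the count of 4676 was 2422, 2333, 1760 and 32 in the same order (4516 at an unadjusted p under 0.05 in the last, which gave 12 genes no p), 2019 with the cKO libraries summed, and 1893 to 8752 with each library left out. Of the relatives, substrates and partners, 24 passed, 13 did so in limma without a filter and 0 in the ordinary linear model (20 at an unadjusted p under 0.05). The cause of these changes was not tested.

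Over the 10 members and 13 alternatives, 99 of 130 fold changes kept their direction and side of the threshold, 28 kept their direction and lost the call, 1 gained it, and 2 changed sign. With each library left out, the log2 fold change ran from −0.0036 to 0.22 for Adamts1 and from −0.059 to 0.63 for Adamts15. Both values below 0 came without control replicate 2. The gained call was that of Adamts1 without control replicate 1, a fit whose spread came from the cKO pair alone.

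Same-numbered libraries did not deviate together across genes (correlation 0.0318), so the replicate numbers were not treated as pairs. With the replicate number as a block, 4885 genes and 8 members passed, 6 of them higher and 2 lower, with 24 of the related genes, and no member's call changed.

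At a −log10 q of at least 10, 3 members kept a peak (Adamts1, Adamts5 and Adamts7) with 6 peaks, of which 2 also lie within Tbc1d2b. The other peak rules left 5 members with 7 to 9 peaks; leaving out peaks within another gene was a rule chosen after seeing the data. GGAC lay within the 100 bases around the summit for 77.8% of the 9 summits within members, against 59.9% of all peaks in genes. A DRACH pentamer lay in all 9, as in 99.4% of all peaks in genes. These 9 include the 2 that also lie within Tbc1d2b, which were searched on the Adamts7 strand although Tbc1d2b is on the opposite strand. Both shares are therefore not of assignable member peaks alone. The depth of the MeRIP-Seq samples is unknown, and 25 to 112 counts in a library behind Adamts6 and Adamts15 limit what their fold changes can show.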

Other observations

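Peaks of m6A also lay on genes around the Adamts proteases. Of the 9 other Adamts genes, Adamts14 alone had a peak, in its coding sequence (4.37-fold enrichment). Of the 7 Adamts-like genes, Thsd4 had 2 peaks and Adamtsl5 had 1, and all 3 summits were in a 3′UTR. Of the 12 substrates, 6 had a peak, with 12 peaks between them. Of the 13 inhibitors and partners, 5 had a peak, with 9 peaks. For comparison, 38.6% of all genes tested in the RNA-seq data had a peak. Vcan, cut by several of the members, had a summit in coding sequence with an 8.46-fold enrichment and another in its 3′UTR with a 3.32-fold enrichment. Acan had none in the list, and Lrp1 and Timp2 had 3 each. These genes other than Adamts14 were named after their peaks were seen, and the peaks carry no replicate error.

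Adamts15 and Adamts8 are neighbours on chromosome 9, 20.1 kb apart with no other entry of the expression table between them. Adamts8 had at most 1 count in a library.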
